A study of Mus musculus with 12 samples.

Results

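The 9 genes described here, Zbtb32, Bhlhe41, Siglecg, Cacna1e, Diras2, Rdh12, Dnase1l3, Zcwpw1 and Myof, were picked by symbol from the 55401 genes of the count table as transcripts of B-1 cells that are lower after tumour injection. Their levels after injection and in uninjected mice were known when they were picked, so those levels are given as a description, with no test. All 9 had a row in the table and all 9 passed the filter on low counts, as did 16915 genes in all. Of the 9, 8 were lower in both injected groups, whereas Myof was higher in both, so the description does not hold for Myof.

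Bulk RNA came from peritoneal lavage cells, and all mice were C57BL/6J. The ID8-FSHR group (4 libraries) received the mouse ovarian cancer line labelled ID8 (defb29/Vegf-a) FSHR, which per the series text overexpresses the receptor for follicle-stimulating hormone. The ID8 group (4 libraries) received the line labelled ID8 (defb29/Vegf-a), without the added receptor, and the third group (4 libraries) had no injection. Cells were injected intraperitoneally, and the cavity was lavaged with 8 mL of saline on day 7. The labels name no group injected with fluid or with other cells, so the tumour and the act of injection cannot be told apart. The labels give no promoter for the receptor, no number of clones and no age of the mice, and the number of cells injected is 4000000 in the series text and 5000000 in the sample protocol. The labels call the cell type a cell line, whereas the uninjected libraries held transcripts of peritoneal leukocytes: the summed level of 15 pan-B genes was 4634 ± 558 CPM (read counts relative to the effective library size, mean ± SD, n = 4) and that of 13 large peritoneal macrophage genes was 13310 ± 1146 CPM.

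B-1 cells are innate-like B lymphocytes that renew themselves in the peritoneal and pleural cavities and secrete natural IgM without prior immunisation. Their identity depends on strong, chronic signals through the B cell receptor, which are held in check by inhibitory receptors, and on transcription factors that are low in the conventional follicular (B-2) lymphocytes of spleen and lymph node. In the mouse, loss of Siglecg expands the B-1a compartment, and loss of Bhlhe41 together with its relative Bhlhe40 depletes it. Among the other genes, Zbtb32 encodes a transcriptional repressor of the BTB zinc-finger family, Cacna1e the pore of the R-type calcium channel, and Diras2 a small GTPase of the Ras family. Rdh12 encodes a retinal reductase best known from photoreceptors, Dnase1l3 a secreted DNase that digests chromatin, Zcwpw1 a reader of methylated histone H3 best known from meiosis, and Myof the ferlin myoferlin, a membrane-repair protein that many non-lymphoid cells express.

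Promoters are shown for 4 of the genes because they span the range of the set: Bhlhe41 and Siglecg, whose products regulate B-1 cells, Cacna1e, whose level differed most, and Myof, whose level differed the other way. Each runs from 250 bases before to 50 bases after the RefSeq start site (build GRCm38.p6), 5′ to 3′ on the gene's own strand. For Siglecg the first of its RefSeq promoters is printed. Capitals mark matches to the E-box CACGTG, the sequence that Bhlhe41-type proteins bind, or to the GC box CCCCGCCC.
Bhlhe41, chr6:145865371-145865670, minus strand: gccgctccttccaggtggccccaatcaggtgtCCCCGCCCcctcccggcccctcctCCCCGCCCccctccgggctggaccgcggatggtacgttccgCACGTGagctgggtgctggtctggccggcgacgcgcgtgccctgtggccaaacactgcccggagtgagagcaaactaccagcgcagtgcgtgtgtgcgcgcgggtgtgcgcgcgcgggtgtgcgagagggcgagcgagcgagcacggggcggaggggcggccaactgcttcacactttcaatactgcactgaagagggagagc
Siglecg, chr7:43407989-43408288, plus strand: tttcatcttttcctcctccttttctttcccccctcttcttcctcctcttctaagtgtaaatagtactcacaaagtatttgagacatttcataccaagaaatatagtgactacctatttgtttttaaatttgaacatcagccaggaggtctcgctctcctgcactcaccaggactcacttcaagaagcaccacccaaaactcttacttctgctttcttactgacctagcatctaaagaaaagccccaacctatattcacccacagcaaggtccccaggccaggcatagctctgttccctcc
Cacna1e, chr1:154725871-154726170, minus strand: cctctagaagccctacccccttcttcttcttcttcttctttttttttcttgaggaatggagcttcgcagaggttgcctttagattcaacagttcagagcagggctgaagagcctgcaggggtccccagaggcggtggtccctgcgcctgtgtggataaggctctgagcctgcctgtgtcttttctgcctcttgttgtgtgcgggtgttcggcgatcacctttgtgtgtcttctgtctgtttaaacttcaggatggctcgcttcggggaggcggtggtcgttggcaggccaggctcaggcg
Myof, chr19:38043528-38043827, minus strand: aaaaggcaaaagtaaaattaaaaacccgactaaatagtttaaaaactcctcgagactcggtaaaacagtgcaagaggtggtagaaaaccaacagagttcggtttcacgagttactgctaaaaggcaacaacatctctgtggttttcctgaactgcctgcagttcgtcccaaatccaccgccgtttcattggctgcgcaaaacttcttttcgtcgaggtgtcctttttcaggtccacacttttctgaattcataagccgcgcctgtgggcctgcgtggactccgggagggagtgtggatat

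RefSeq promoters were found for 8 of the genes, 11 in all. Of these 11, only that of Bhlhe41 held an E-box (CACGTG, its own reverse complement), its first base at position -153 from the start site, and 7.15% of all 32851 mouse promoters of the same length held it. It also held GC boxes (CCCCGCCC or its reverse complement) at -218 and -194, a motif found in 17.6% of all promoters. None of the 11 held the octamer ATTTGCAT (1.74% of all promoters), the PU.1-type site GAGGAAGT (3.2%), the cyclic-AMP response element TGACGTCA (1.79%) or TATAAA (13.6%), each searched on both strands, and no match overlapped another. The Bhlhe41 promoter also had the highest G and C content of the 11, 70.7%, and the most CpG dinucleotides, 32. The first Siglecg promoter had the lowest G and C content, 43.7%, and 1 CpG. CpG counts between these were 17 and 23 for Zcwpw1, 15 for Myof, 11 for Cacna1e, 8 for Diras2, 5 for Rdh12, and 3 and 10 for Zbtb32. The median over all promoters was 52.7% and 7. These matches are a description of the sequence only.

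The libraries held between 47419608 and 64333677 counts, with overlapping ranges in the 3 groups. ID8-FSHR replicate 2 stood apart from the other 7 libraries of injected mice. Its first principal component score, on an axis holding 85.3% of the variance, was -24.8, against -68.7 to -60.7 in the other 7 and 116 to 121 in uninjected mice. Its summed level of 15 mesothelial and ID8 tumour genes was also the lowest of the injected mice, at 2048 CPM. For the 9 genes, 3 kinds of result are also given without it. These are the range of log2 fold changes against uninjected mice, the shares of the pan-B sum and the test between the injected groups. Other results on the 9 genes, such as the intervals and the correlations within groups, include it.

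All levels below are in CPM, scaled by the trimmed mean of M values. The first genes are the transcriptional regulators. Zbtb32 stood at 6.02, 11.1, 8.23 and 6.70 CPM in the ID8-FSHR libraries, at 9.90, 8.14, 5.32 and 9.14 CPM in the ID8 libraries, and at 69.6, 76.7, 71.7 and 83.2 CPM in the uninjected libraries. Every library of injected mice lay below every uninjected library, and the ID8-FSHR and ID8 libraries overlapped. The level was 9.40-fold lower in ID8-FSHR than in uninjected mice (log2 fold change -3.23, SE 0.21) and 9.25-fold lower in ID8 than in uninjected mice (-3.21, SE 0.21). In a bulk sample such a difference cannot be told apart from fewer cells of the type, from less RNA per cell, or from dilution by RNA of other cells, here and for all the genes that follow. Of the other BTB zinc-finger genes listed as relatives of Zbtb32, 7 of 8 tested were lower in ID8-FSHR and 6 of 8 in ID8 mice against uninjected mice, and none was higher. Their medians were -0.59 and -0.46 on the log2 scale. The lowest of them was Zbtb16 (PLZF, a regulator of innate-like lymphocytes), at -1.41 in ID8-FSHR (edgeR adjusted p = 0.00165) and -1.80 in ID8 mice (adjusted p = 0.000285).

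Bhlhe41 (DEC2, a basic helix-loop-helix repressor) had 15.4, 15.6, 15.8 and 18.2 CPM in the ID8-FSHR libraries, 22.0, 14.5, 17.5 and 20.8 CPM in the ID8 libraries, and 87.2, 104.4, 105.6 and 110.2 CPM in the uninjected libraries. Both injected groups lay wholly below the uninjected one. The level was 6.27-fold lower in ID8-FSHR (log2 fold change -2.65, SE 0.13) and 5.45-fold lower in ID8 mice (-2.45, SE 0.13) than in uninjected mice. Its closest relative Bhlhe40 (DEC1) was not called: it averaged 184 CPM in ID8-FSHR, 155 CPM in ID8 and 176 CPM in uninjected mice, with log2 fold changes of 0.06 (adjusted p = 0.815) and -0.19 (adjusted p = 0.453) against uninjected mice. The clock gene Arntl and the E-protein gene Tcf3, 2 further relatives, had log2 fold changes of -0.68 and -0.77 in ID8-FSHR mice. In ID8 mice they stood at -0.22 and -0.72. Of 9 tested relatives of Bhlhe41, 4 were lower and 1 higher in ID8-FSHR, and 2 were lower and 2 higher in ID8 mice. The list maximum was a log2 fold change of 5.88 in ID8-FSHR and 5.23 in ID8 mice, so the relatives did not move as a family. Of the bases in Bhlhe41 exons, 19% are shared with the antisense gene Gm43909, and since the strand setting of the counting is not given, reads of the pair cannot be told apart.

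The next genes encode membrane proteins. Siglecg, the inhibitory sialic-acid-binding lectin of B cells, had 20.3, 24.1, 16.8 and 12.9 CPM in the ID8-FSHR libraries, 22.1, 13.7, 19.7 and 21.6 CPM in the ID8 libraries, and 161.5, 159.3, 160.0 and 195.8 CPM in the uninjected libraries. Again no library of injected mice reached an uninjected library, and the injected groups overlapped. The level was 9.13-fold lower in ID8-FSHR (log2 fold change -3.19, SE 0.19) and 8.77-fold lower in ID8 mice (-3.13, SE 0.19) than in uninjected mice. Within its family, Cd22, the other inhibitory Siglec of B cells, was lower by a log2 fold change of -2.65 in ID8-FSHR and -2.62 in ID8 mice (adjusted p = 1.97e-07 and 2.05e-07). Siglec1 (sialoadhesin), which marks macrophages, was higher in both, at 2.79 in ID8-FSHR (adjusted p = 0.000443) and 1.48 in ID8 mice (adjusted p = 0.0199).

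Among 15 inhibitory receptors of the B cell receptor and their effectors, Siglecg included, 11 were lower and 2 higher in ID8-FSHR mice, and 12 were lower and none higher in ID8 mice, against uninjected mice. Their median log2 fold changes were -0.97 and -1.39. The lowest after Siglecg was Fcrla, at -3.07 in ID8-FSHR and -2.95 in ID8 mice. Lair1 and Pdcd1, the receptors that went against the list, were higher in ID8-FSHR mice at 1.81 and 2.29 (adjusted p = 0.0015 and 0.00719), and in ID8 mice they stood at 0.75 and 0.82 without passing the test (adjusted p = 0.11 and 0.279). Fcgr2b, the low-affinity IgG receptor of B cells and macrophages, was not called in either group.

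Cacna1e differed most from uninjected mice. It had 12.8, 17.7, 17.1 and 10.1 CPM in the ID8-FSHR libraries, 18.0, 10.0, 18.4 and 17.2 CPM in the ID8 libraries, and 265.7, 238.8, 254.0 and 312.0 CPM in the uninjected libraries. The highest level in any injected mouse was far below the lowest in any uninjected mouse. The level was 18.6-fold lower in ID8-FSHR (log2 fold change -4.22, SE 0.22) and 16.8-fold lower in ID8 mice (-4.07, SE 0.22) than in uninjected mice, which placed it 45th and 42nd from the lowest among all 16915 tested genes. Other channel subunits did not move as a family. Of 14 tested, 6 were lower and 4 higher in ID8-FSHR, and 7 were lower and 4 higher in ID8 mice.

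The pore subunit Cacna1i (a T-type channel) was lower at -2.86 in ID8-FSHR and -2.77 in ID8 mice (adjusted p = 4.43e-08 and 5.46e-08), with 68.4 CPM in uninjected mice. The auxiliary subunit Cacna2d4 was lower at -2.07 and -2.11 in the same order of groups. By contrast, the auxiliary subunits Cacnb3 and Cacna2d1 were nearly absent from uninjected mice, at 0.45 and 0.49 CPM, and averaged 117 and 83.9 CPM in ID8-FSHR and 138 and 122 CPM in ID8 mice. These subunits are expressed in many cell types outside the lymphocyte lineage.

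Diras2 had 6.77, 10.8, 7.53 and 5.64 CPM in the ID8-FSHR libraries, 9.90, 4.74, 8.05 and 10.6 CPM in the ID8 libraries, and 102.1, 99.1, 116.2 and 124.6 CPM in the uninjected libraries. The injected and uninjected libraries did not overlap. The level was 14.4-fold lower in ID8-FSHR (log2 fold change -3.85, SE 0.25) and 13.3-fold lower in ID8 mice (-3.73, SE 0.25) than in uninjected mice. Its relative Diras1 was too low to be tested. Among 6 tested genes of related GTPases and their regulators, the lowest was Rap1gap2, at -0.94 in ID8-FSHR and -1.08 in ID8 mice (adjusted p = 0.000132 and 4.31e-05). Of the 6, 3 were lower and 1 higher in ID8-FSHR, and 4 were lower and 2 higher in ID8 mice. The highest log2 fold changes were 1.17 and 2.49 in those groups.

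The enzymes had the lowest CPM of the set, a scale that is not corrected for gene length. Rdh12 had 3.76, 5.17, 3.83 and 2.85 CPM in the ID8-FSHR libraries, 3.15, 1.43, 2.75 and 3.43 CPM in the ID8 libraries, and 32.3, 23.3, 28.2 and 34.3 CPM in the uninjected libraries. The level was 7.57-fold lower in ID8-FSHR (log2 fold change -2.92, SE 0.25) and 10.9-fold lower in ID8 mice (-3.45, SE 0.26) than in uninjected mice. No injected library reached the uninjected range, and the lowest library, ID8 replicate 2, rested on 71 counts. Rdh10, a retinol dehydrogenase that makes retinal, was higher instead, at 3.99 in ID8-FSHR and 3.51 in ID8 mice (adjusted p = 1.65e-09 and 2.07e-09). Dhrs3, a retinal reductase, was lower at -1.39 and -0.94 (adjusted p = 8.26e-07 in ID8-FSHR and 2.64e-05 in ID8 mice).

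Dnase1l3 had 1.91, 3.24, 3.69 and 5.00 CPM in the ID8-FSHR libraries, 3.36, 1.57, 3.17 and 3.85 CPM in the ID8 libraries, and 39.2, 38.2, 44.0 and 60.3 CPM in the uninjected libraries. Its injected and uninjected libraries also stood wholly apart. The level was 13.1-fold lower in ID8-FSHR (log2 fold change -3.72, SE 0.31) and 15.1-fold lower in ID8 mice (-3.92, SE 0.31) than in uninjected mice. Dendritic cells and macrophages are further known sources of this enzyme. The summed level of 10 dendritic cell genes was 139 ± 13.4 CPM in ID8-FSHR, 156 ± 17.8 CPM in ID8 and 332 ± 40.1 CPM in uninjected mice (SD, n = 4 each), and that of 13 large peritoneal macrophage genes was 6256 ± 1572, 6434 ± 695 and 13310 ± 1146 CPM in those groups. Their part in the Dnase1l3 difference was not tested. The lysosomal enzyme gene Dnase2a and Dnase1l1 differed less, at -0.48 and -0.74 in ID8-FSHR and at -0.74 and -0.87 in ID8 mice.

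Zcwpw1 had 10.3, 14.3, 16.5 and 8.80 CPM in the ID8-FSHR libraries, 10.3, 7.90, 9.44 and 12.9 CPM in the ID8 libraries, and 50.9, 49.9, 72.1 and 52.2 CPM in the uninjected libraries. Its injected libraries all lay below its uninjected ones. It was the least lowered of the 8 in ID8-FSHR mice, 4.52-fold (log2 fold change -2.17, SE 0.21), and was 5.54-fold lower in ID8 mice (-2.47, SE 0.21) than in uninjected mice. Prdm9, whose product writes the histone marks that Zcwpw1 reads in germ cells, had 13.7 CPM in uninjected mice and was lower at -1.28 in ID8-FSHR and -1.42 in ID8 mice (adjusted p = 0.000137 and 5.76e-05). Prdm9 was the lowest of 4 tested relatives of Zcwpw1, of which 2 were lower and 2 higher in either injected group. Of the exon bases of Zcwpw1, 8.21% are shared with Pilra on the other strand, so some of its reads may belong to that gene.

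Myof ran the other way. It had 684, 597.7, 703 and 791.9 CPM in the ID8-FSHR libraries, 786.5, 771.9, 742.6 and 834 CPM in the ID8 libraries, and 341.5, 293.5, 308.6 and 305.9 CPM in the uninjected libraries. Every injected library lay above every uninjected library. The level was 2.22-fold higher in ID8-FSHR (log2 fold change 1.15, SE 0.09) and 2.51-fold higher in ID8 mice (1.33, SE 0.09) than in uninjected mice. Beside it, the 15 mesothelial and ID8 tumour genes summed to 4361 CPM in ID8-FSHR (range 2048 to 6048), 8426 CPM in ID8 (range 7209 to 9205) and 22.5 CPM in uninjected mice (range 21.2 to 23.7). Of these 15 genes, 14 were higher in ID8-FSHR and 15 in ID8 mice, and none was listed at 0 in all libraries. Their part in the level of Myof was not tested. Of the other ferlin genes, only Otof passed the filter on low counts, and it was lower, at -1.72 in ID8-FSHR and -1.58 in ID8 mice.

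**Figure D1:**
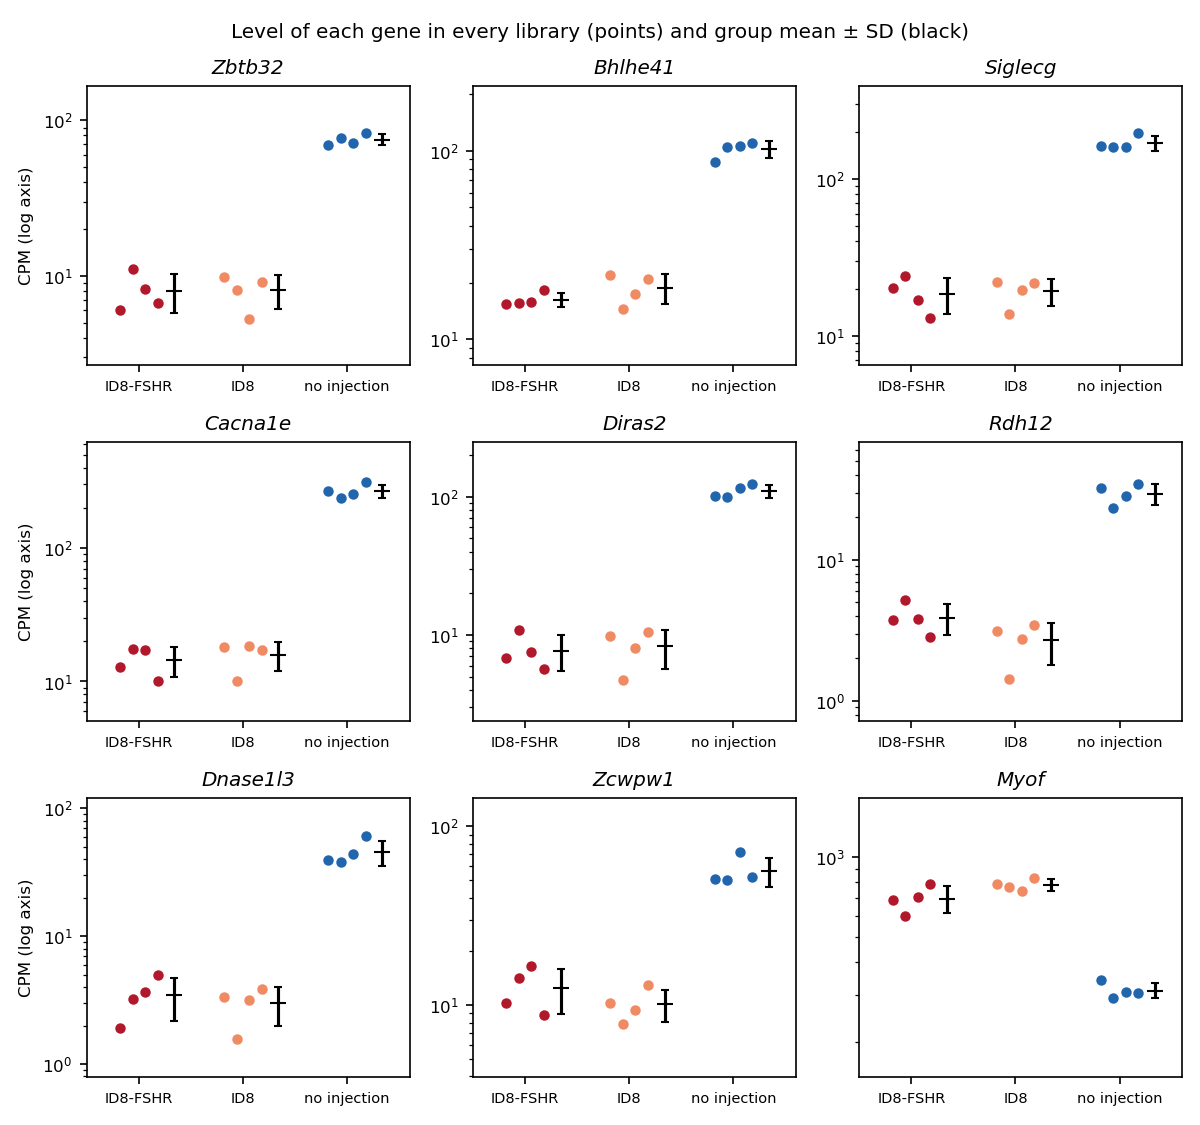
CPM of the 9 genes on a log axis in each of the 12 libraries, with ID8-FSHR in dark red, ID8 in orange and no injection in blue, and the group mean ± SD in black. In 8 panels all injected libraries lie below all uninjected libraries, in the Myof panel they lie above, and the ID8-FSHR and ID8 points overlap in all 9.

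Counted over the set, 8 of 9 genes were lower without overlap and 1 was higher without overlap in both injected groups. Over all 16915 tested genes, 27.4% were lower without overlap and 29.6% higher in ID8-FSHR against uninjected mice, and 30.7% were lower and 31.8% higher in ID8 against uninjected mice. Since the genes were picked on these levels, nothing is read from their count against that background. The median log2 fold change of the 9 was -3.19 in ID8-FSHR and -3.21 in ID8 mice, against 0.00 and -0.03 over all tested genes. Without ID8-FSHR replicate 2 the log2 fold changes in ID8-FSHR mice lay between -4.23 (Cacna1e) and -2.15 (Zcwpw1) for the 8 lowered genes, and that of Myof was 1.32. Both sets of values use the same 4 uninjected libraries, so they are not independent of each other.

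Levels of different genes are compared per kilobase of exon. In uninjected mice Siglecg (35.2 ± 3.70 CPM per kb) and Zbtb32 (31.9 ± 2.57) led, and their libraries overlapped. Myof (24.8 ± 1.62) and Diras2 (23.1 ± 2.51) came next and overlapped as well, followed by Bhlhe41 (15.2 ± 1.5), which was separate from its neighbours. Cacna1e, Rdh12, Zcwpw1 and Dnase1l3 lay between 10.6 and 8.81 CPM per kb, each overlapping the next. In injected mice Myof stood alone at the top, at 55.1 ± 6.32 CPM per kb in ID8-FSHR and 62.2 ± 3.03 in ID8 mice, and Siglecg was next at 3.85 ± 0.99 and 4.01 ± 0.80. The other genes followed with each overlapping the next, so their order is not resolved. Cacna1e and Dnase1l3, which overlapped, had the lowest means, at 0.57 ± 0.14 and 0.67 ± 0.25 in ID8-FSHR and at 0.63 ± 0.16 and 0.58 ± 0.19 in ID8 mice. The length of Cacna1e is the merged length of all its annotated exons, 25228 bases, from another version of its gene model than the one counted, and its value per kb depends on that length.

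The general B cell transcripts give a scale against which to read these levels. All 15 pan-B genes were lower in both injected groups, where 30.6% of all tested genes were called lower and 33.9% higher in ID8-FSHR, and 31.4% lower and 32.7% higher in ID8 against uninjected mice. Their sum was 721 ± 133 CPM in ID8-FSHR, 761 ± 102 CPM in ID8 and 4634 ± 558 CPM in uninjected mice (SD, n = 4 each), and their median log2 fold changes were -2.96 and -2.79. The smallest difference was that of Ralgps2, at -1.11 and -1.12, and the largest that of Blk, a B cell Src-family kinase, at -3.63 and -3.33. Cacna1e, Diras2 and Dnase1l3 were each lower by more than all 15 pan-B genes in both groups. Zbtb32 and Siglecg were lower by more than 13 of them in ID8-FSHR and 14 in ID8 mice. Rdh12 was lower by more than 7 of them in ID8-FSHR and all 15 in ID8 mice. Bhlhe41 was lower by more than only 4 in either group, and Zcwpw1 by more than 1 in ID8-FSHR and 4 in ID8 mice.

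Expressed as a share of the pan-B sum, Cacna1e was 1.99% in ID8-FSHR (range 1.74% to 2.30%), 2.07% in ID8 (1.63% to 2.25%) and 5.80% in uninjected mice (5.06% to 6.54%). Diras2 was 1.06% in ID8-FSHR, 1.08% in ID8 and 2.39% in uninjected mice. Siglecg was 2.55%, 2.52% and 3.67%, and Zbtb32 was 1.11%, 1.08% and 1.64%, in those groups. These 4 shares were lower in both injected groups with no overlap. In ID8 mice the shares of Rdh12 (0.347% against 0.641% in uninjected mice) and Dnase1l3 (0.386% against 0.974%) were also lower with no overlap, but in ID8-FSHR mice both overlapped the uninjected range, each through 1 library. For Rdh12 it was ID8-FSHR replicate 2, at 0.600%. Without that library the share was 0.510% to 0.527% in ID8-FSHR, below the lowest uninjected share of 0.548%. For Dnase1l3 it was ID8-FSHR replicate 4, at 0.926%, against a lowest uninjected share of 0.876%.

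By contrast, the share of Bhlhe41 was 2.35% in ID8-FSHR, 2.45% in ID8 and 2.21% in uninjected mice, and that of Zcwpw1 was 1.73%, 1.34% and 1.22%, all with overlapping ranges. In all, 4 of 9 shares were lower without overlap in ID8-FSHR and 6 of 9 in ID8 mice, where 0.597% and 0.538% of all tested genes had a lower share without overlap. Without ID8-FSHR replicate 2, an alternative chosen after seeing the data, the count in ID8-FSHR was 5 of 9, where 0.751% of all tested genes had a lower share without overlap. The contrast is the one the genes were picked on, and nothing is read from it. Scaled to the pan-B genes, the median log2 fold change of all tested genes was 2.71 in ID8-FSHR and 2.58 in ID8 mice, because the pan-B genes themselves are lower there. On that scale the log2 fold change of Cacna1e was -1.54 in ID8-FSHR and -1.49 in ID8 mice, that of Bhlhe41 was 0.09 and 0.15, and that of Zcwpw1 was 0.51 and 0.13.

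**Figure D2:**
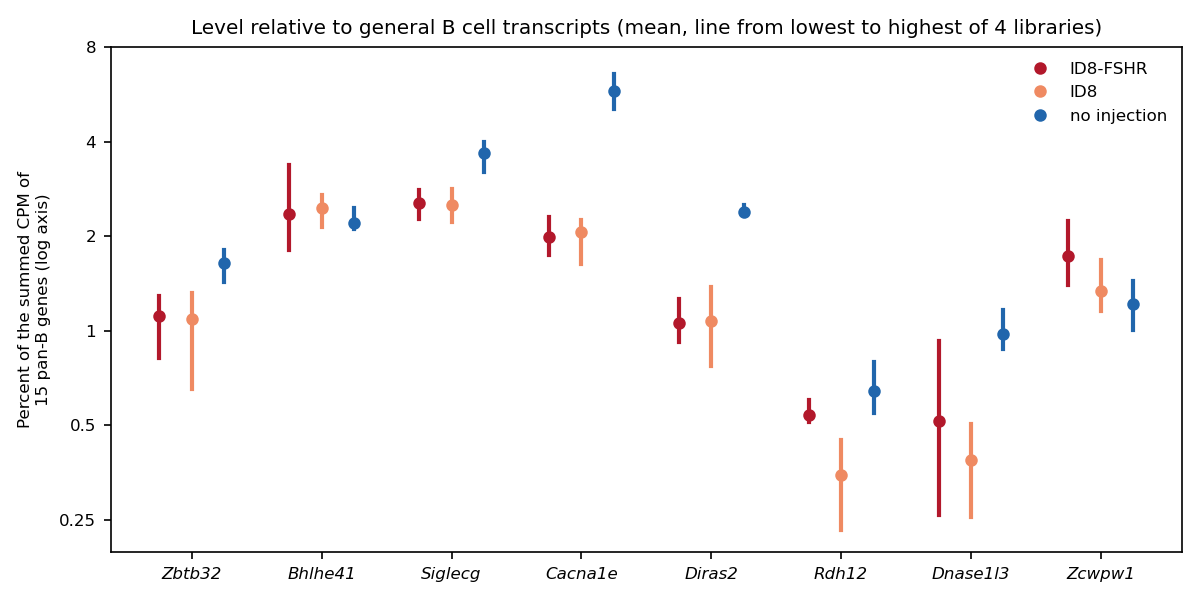
Level of the 8 lowered genes as a percent of the summed CPM of 15 pan-B genes, on a log axis, for ID8-FSHR (dark red), ID8 (orange) and no injection (blue); points are means and lines run from the lowest to the highest of 4 libraries. The shares of Zbtb32, Siglecg, Cacna1e and Diras2 lie below the uninjected range in both injected groups, and those of Bhlhe41 and Zcwpw1 overlap it.

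Other genes listed as B-1 markers moved less evenly. Of 21 tested, 13 were lower and 2 higher in ID8-FSHR, and 16 were lower and 3 higher in ID8 mice, with medians of -0.97 and -1.37. Il5ra, the receptor chain for the B-1 growth factor interleukin-5, was lower at -3.85 in ID8-FSHR and -3.68 in ID8 mice (adjusted p = 2.91e-08 and 3.75e-08), and Nid1 at -3.43 and -3.46. Cd5, which defines B-1a cells but is also a T cell antigen, was lower at -0.81 in ID8-FSHR and -2.10 in ID8 mice (adjusted p = 0.00963 and 8.45e-06). Lgals1 and Anxa2, which many non-lymphoid cells express, were higher, Lgals1 at 4.31 and 3.91 and Anxa2 at 1.23 and 1.32. S100a6 was higher in ID8 mice, at 0.97.

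All 10 tested B-2 genes were lower in both injected groups, with medians of -1.54 in ID8-FSHR and -1.46 in ID8 mice. The lowest of them was the chemokine receptor gene Cxcr5, at -3.14 in ID8-FSHR and -2.97 in ID8 mice, within the range of the 8 lowered genes. The highest log2 fold changes of the list were -0.33 in ID8-FSHR and -0.44 in ID8 mice. Of 16 genes of B cell receptor signalling, 15 were lower in ID8-FSHR and 16 in ID8 mice, with medians of -1.64 and -1.78. Many genes of the last list are also expressed by macrophages and other leukocytes.

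**Figure D3:**
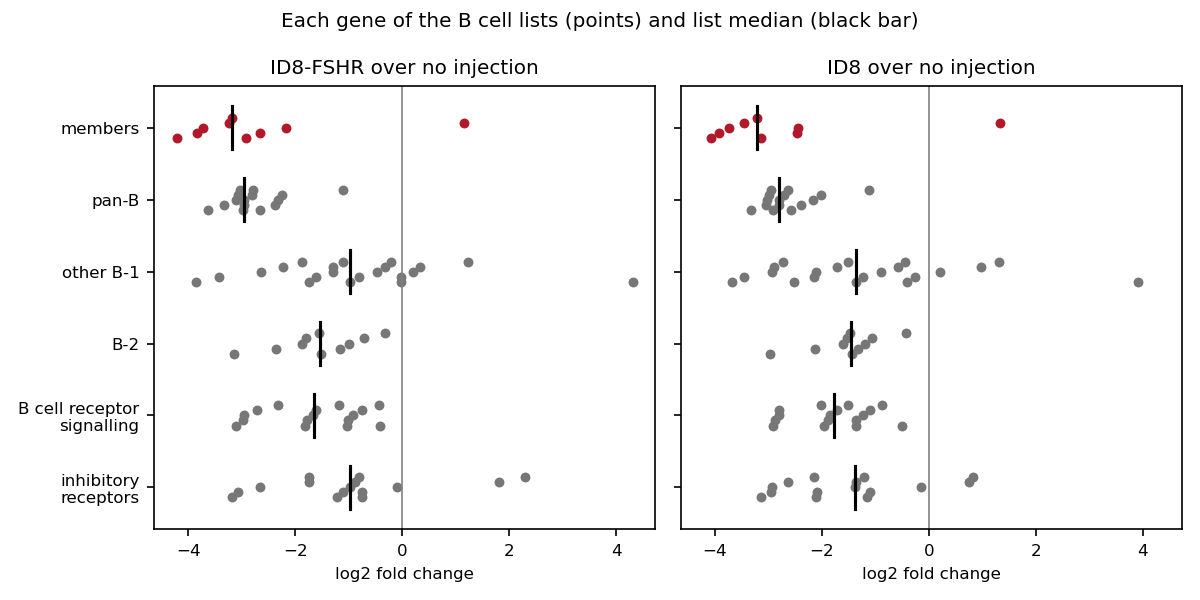
log2 fold change over uninjected mice of each tested gene (points) in the set of 9 and in 5 B cell lists, for ID8-FSHR (left) and ID8 (right), with the list median as a black bar. The medians of the set were -3.19 and -3.21. The set was picked on this contrast, so nothing is read from its place beside the lists. The medians were -2.96 and -2.79 for pan-B, -0.97 and -1.37 for other B-1, and -1.54 and -1.46 for B-2 genes. They were -1.64 and -1.78 for B cell receptor signalling, and -0.97 and -1.39 for inhibitory receptors.

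The difference between the injected groups was tested. The genes were picked as lower after tumour injection, with the levels in both injected groups known. Such a choice may favour genes with similar levels in both groups, so nothing is read from counts of the 9 against all genes. None of the 9 differed between ID8-FSHR and ID8 mice in the quasi-likelihood test of edgeR, with adjusted p from 0.179 to 0.956, whereas 6.04% of all tested genes were called higher and 5.56% lower, 11.6% in either direction. At an unadjusted p under 0.05 the count was also 0 with edgeR. DESeq2 called 0 after adjustment, and 1, Rdh12, at an unadjusted p under 0.05. The ranges of the injected groups overlapped for all 9 genes, where 18.5% of all tested genes did not overlap. The median log2 fold change of the 9 was -0.06, against -0.01 over all tested genes.

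A p above the threshold does not show equal levels, and the 95% intervals of the fold, ID8-FSHR over ID8, say how large a difference remains possible. They ran from 0.723 to 1.04 for Bhlhe41, from 0.731 to 1.26 for Siglecg, from 0.728 to 1.33 for Zbtb32 and from 0.668 to 1.22 for Cacna1e. The interval was widest on the log scale for Dnase1l3, from 0.737 to 1.80. Diras2 had an interval from 0.651 to 1.31 and Zcwpw1 from 0.903 to 1.67. That of Myof, the most abundant of the set, was the narrowest, from 0.778 to 1.01, around a log2 fold change of -0.18 (SE 0.09, adjusted p = 0.203).

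Rdh12 had the largest difference, with means of 3.90 ± 0.96 CPM in ID8-FSHR and 2.69 ± 0.89 CPM in ID8 mice (SD, n = 4 each). Its log2 fold change was 0.53 (SE 0.25, edgeR adjusted p = 0.179), with an interval of the fold from 0.997 to 2.09. As a share of the pan-B sum it was 0.510% to 0.600% in ID8-FSHR and 0.232% to 0.448% in ID8 mice, so that the groups did not overlap on that scale, where 3.94% of all tested genes were higher without overlap. Without ID8-FSHR replicate 2 its highest share in ID8-FSHR was 0.527% and the groups still did not overlap, where 8.16% of all tested genes were higher without overlap. Scaled to the pan-B genes, its log2 fold change was 0.63 (edgeR adjusted p = 0.198). The other 8 genes overlapped on that scale too.

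**Figure D4:**
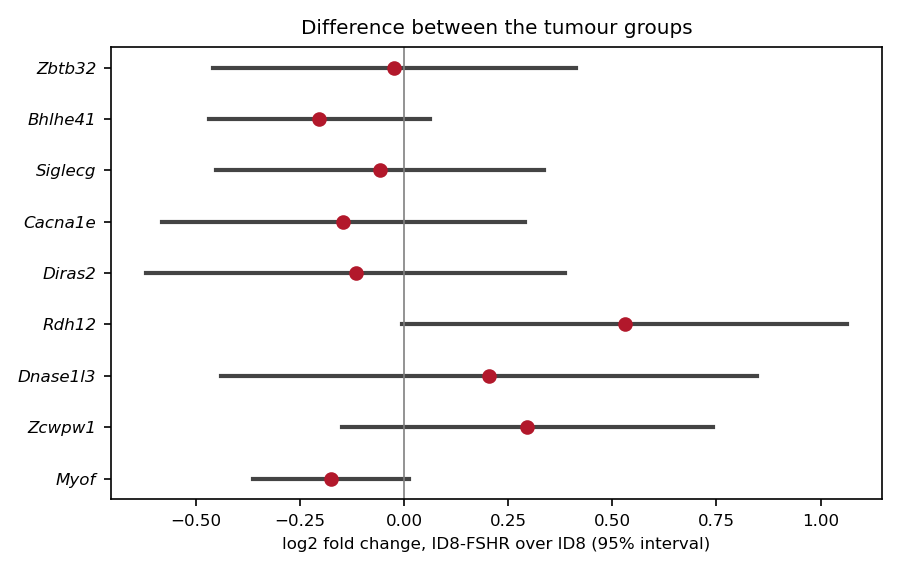
log2 fold change of the 9 genes, ID8-FSHR over ID8 (points), with the 95% interval of the edgeR fit (lines) and 0 as a grey line. All 9 intervals include 0, and that of Rdh12, with a fold from 0.997 to 2.09, reaches farthest above it.

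Without ID8-FSHR replicate 2, again 0 of the 9 genes were called, against 1694 of 17377 tested genes (9.75%). The log2 fold change of Rdh12 was then 0.38 (adjusted p = 0.362), that of Zbtb32 -0.21 (adjusted p = 0.502) and that of Myof -0.09 (adjusted p = 0.481). The values that follow in this paragraph are from the fit of all 12 libraries, ID8-FSHR replicate 2 included. Of the 15 pan-B genes only Blnk, a B cell receptor adaptor, was called between the injected groups, lower at -0.32 (adjusted p = 0.0425). Among the other B-1 genes, Cd5 (1.30, adjusted p = 0.00509), Spn (0.89, adjusted p = 0.0231) and Ctla4 (1.83, adjusted p = 0.021) were higher in ID8-FSHR than in ID8 mice, and S100a6 (-0.76, adjusted p = 0.000493) and Ahnak (-0.40, adjusted p = 0.0391) were lower. T cells also express Cd5, Spn and Ctla4. Of 10 T cell genes 5 were higher in ID8-FSHR than in ID8 mice, and their sum was 99.5 CPM (range 61.8 to 136.9) in ID8-FSHR and 45.1 CPM (range 42.0 to 47.9) in ID8 mice. The part of T cells in these B-1 marker differences was not tested.

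Within groups, the lowered genes often had their highest or lowest level in the same library, which was not always the library with the highest or lowest pan-B sum. In ID8 mice, replicate 2 was the lowest library for 7 of the 8 lowered genes, Zbtb32 being the exception, and it also had the lowest pan-B sum of the group, 617 CPM. In ID8-FSHR mice, replicate 4 was the lowest for 5 of the 8, with the lowest pan-B sum of the group, 540 CPM, yet it was the highest for Bhlhe41, Dnase1l3 and Myof. That library also had the lowest sum of large peritoneal macrophage genes, 3952 CPM. In uninjected mice, replicate 4 was the highest for 7 of the 8 and had the highest pan-B sum, 5198 CPM. Replicate 2 of that group was the lowest for 6 of the 8, although replicate 1 had the lowest pan-B sum (4061 CPM, against 4258 CPM in replicate 2). Likewise, ID8 replicate 4 was the highest of its group for 4 of the 8, although ID8 replicate 1 had the highest pan-B sum (843 CPM, against 767 CPM in replicate 4). ID8-FSHR replicate 2 was the highest of its group for 5 of the 8 and had the highest pan-B sum, 862 CPM.

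The coefficient of variation of the 8 ran from 8.17% to 36.8% in ID8-FSHR, from 18.0% to 33.0% in ID8 and from 8.04% to 22.5% in uninjected mice. Counting error alone would give at most 7.34%, 8.05% and 2.61% in those groups, since the 8 genes had from 71 to 14323 counts per library. Taking each library's deviation from its group mean, all 28 pairs of the 8 genes were positively correlated over the 12 libraries, with Pearson r from 0.16 to 0.94 and a median of 0.47. The closest pair was Diras2 and Rdh12, at 0.94, and the least close Siglecg and Dnase1l3, at 0.16. These values share the scaling of each library and describe these 12 libraries only.

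For each gene, the genes with the most similar pattern over the 12 libraries were sought among 11584 tested genes, by Pearson r of log2(CPM + 0.5). Since the libraries fall into injected and uninjected ones, such an r mostly reflects that contrast, and r of the deviations within groups is given second. The nearest genes to Cacna1e were Tnfrsf13b (TACI, a receptor of the survival factors BAFF and APRIL; 0.999 and 0.943) and Ighm (the IgM heavy chain; 0.998 and 0.918). Siglecg was nearest to Il5ra (0.998 and 0.931) and Cd79b (a B cell receptor signalling chain; 0.997 and 0.927), and Diras2 to Fcrla (0.998 and 0.932) and Il5ra (0.998 and 0.927). Dnase1l3 was nearest to Cacna2d4 (0.994 and 0.856) and Tlr9 (0.991 and 0.798), and Zcwpw1 to Ighv10-1 (0.989 and 0.889) and Bcl11a (a B lymphoid transcription factor; 0.988 and 0.810).

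The matches of the remaining genes were as follows. Zbtb32 was nearest to Gpr137b-ps (0.994 and 0.866) and Rtl5 (0.993 and 0.877), Bhlhe41 to Zfp296 (0.994 and 0.694) and Abhd17b (0.991 and 0.808), and Rdh12 to Kynu (0.990 and 0.872) and Dkkl1 (0.990 and 0.824). Myof was nearest to Gpr39 (0.996 and 0.862) and Dbn1 (0.995 and 0.852). Both of these were nearly absent from uninjected mice, Gpr39 at 0.04 CPM and Dbn1 at 0.66 CPM, and averaged 9.30 and 45.8 CPM in ID8-FSHR and 15.5 and 70.5 CPM in ID8 mice. Myof differed from them in having 312 ± 20.5 CPM (SD, n = 4) in uninjected mice. That was a higher CPM than that of 97.0% of all tested genes there, on a scale not corrected for gene length.

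The genes lie apart in the genome (build GRCm38, GENCODE release 21, all protein-coding): Zbtb32 at chr7:30589681-30598909 and Siglecg at chr7:43408204-43418358 share a chromosome, and the other 7 lie on 7 further ones. Bhlhe41 lies at chr6:145858243-145865558, Cacna1e at chr1:154390731-154884501, Diras2 at chr13:52504380-52531279 and Rdh12 at chr12:79208914-79222665. Dnase1l3 lies at chr14:7964533-7994573, Zcwpw1 at chr5:137787798-137822621 and Myof at chr19:37899036-38043577. Zbtb32, Bhlhe41, Cacna1e, Diras2, Dnase1l3 and Myof are on the minus strand and Siglecg, Rdh12 and Zcwpw1 on the plus strand. Counts were made over exons, of which the merged models hold between 2 (Diras2) and 54 (Myof).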

How the data were processed

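RNA of peritoneal lavage cells of 12 samples (4 per group) was sequenced after ribosomal RNA depletion, per the labels' protocols. The authors deposited raw read counts (whole numbers) for each gene and library, with no sign of normalization. The submitters' processing notes name bcl2fastq 2.20, STAR 2.7.9a, featureCounts of Subread 1.6.4 and the build GRCm38.p6. Strand setting, multi-mapping reads and annotation release: not given in the sources used here. Every column of the table belonged to a sample. Gene models came from GENCODE M21 (GRCm38), where 54349 of 55401 identifiers matched with their version and 55141 in any version.

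Counts of all 12 libraries were fitted in R 4.3.3 with edgeR 4.0.16 (default low-count filter, TMM scaling, robust quasi-likelihood, group only), and p-values were adjusted over all 16915 tested genes by the Benjamini-Hochberg method with a threshold of 0.05. "Higher", "lower" and "called" for genes outside the set mean past that threshold. CPM are counts relative to the effective library size, and the fit was checked on simulated counts. Totals of 47419608 to 64333677 counts per library set the precision, and counting limits cover counting error only. No pair of replicates agreed within sampling noise. The submitters call the samples biological replicates, and p-values weigh a group difference against the spread between them.

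The 9 genes and the 27 gene lists were chosen with earlier results of these data known. Genes named beside the 9 were a choice from the most abundant and the most changed genes of the lists and those against the majority. Not every such gene was named. For each of the 9, the 2 genes most similar in pattern were also named. Replicate numbers did not pair the samples. The alternatives were DESeq2 1.42.0, no filter, median-of-ratios size factors in edgeR, a replicate block, only the 8 libraries compared, scaling to pan-B or pan-leukocyte counts, and leaving out each library.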

Additional observations from a re-analysis of the deposited data

Results flagged for a closer look

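In 4 of 27 sets of 4 library values (9 genes in 3 groups), 1 library stood far from the other 3 by Dixon's criterion, which chance meets in about 1 of 20 sets. These were Bhlhe41 in ID8-FSHR replicate 4 (18.22 CPM, above the rest), Cacna1e in ID8 replicate 2 (10.04 CPM, below the rest), Siglecg in uninjected replicate 4 (195.8 CPM, above the rest) and Zcwpw1 in uninjected replicate 3 (72.08 CPM, above the rest). Each value still lay on its own side of the gap between injected and uninjected libraries.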

How the results depend on the processing

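Under every alternative run, 0 of the 9 genes were called between ID8-FSHR and ID8 mice. The number of genes called in all, 1962, was 3131 with DESeq2, 1776 with the replicate block, and 961 (without ID8 replicate 4) to 3136 (without ID8-FSHR replicate 1) when single libraries were left out. It also moved by over 1.5 times without ID8-FSHR replicate 4 (1189), ID8 replicate 1 (1203) and ID8 replicate 3 (1035), and the cause was not tested. No label says that a replicate number marks a shared animal or batch, and the deviations of same-numbered ID8-FSHR and ID8 libraries correlated at -0.22 to 0.35. Small differences changed sign. Leaving out single libraries gave log2 fold changes of -0.207 to 0.0939 for Zbtb32, -0.195 to 0.0817 for Siglecg, -0.312 to 0.0195 for Diras2 and -0.0315 to 0.410 for Dnase1l3. Scaling to pan-B counts gave 0.0394 for Zbtb32 and 0.0197 for Siglecg, and scaling to pan-leukocyte counts gave -0.06 for Dnase1l3. Against uninjected mice, scaling to pan-B counts turned Bhlhe41 (0.0886 in ID8-FSHR, 0.153 in ID8) and Zcwpw1 (0.505 in ID8-FSHR, 0.134 in ID8). Of the genes called on that scale 99.4% in ID8-FSHR and 99.5% in ID8 were higher, against 52.6% and 51% with TMM, and between the injected groups 74.2% against 52%. With pan-leukocyte scaling these shares were 91.7%, 94.5% and 32.4%, and the 8 genes stayed lower, each by less than with TMM. On that scale Cacna1e was 9.89-fold lower in ID8-FSHR and 7.32-fold lower in ID8 mice. Bhlhe41 was 3.26-fold and 2.39-fold lower in those groups. No other alternative turned a gene's direction against uninjected mice. Counts of 71 to 213 per library limit Rdh12 in ID8 mice, and counts of 156 to 260 limit it in ID8-FSHR mice. Dnase1l3 is limited likewise, by 78 to 227 counts in ID8 and 121 to 274 in ID8-FSHR mice.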
